A study of Rattus norvegicus with 6 samples.

Results

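The genes described here encode the collagens, the laminin chains, nidogen-2 and fibronectin of the extracellular matrix, the metalloproteinases (Mmp and Adamts genes) that cut it, and the tissue inhibitors of metalloproteinases (Timp genes). They were matched by gene symbol, in a choice made with earlier results of these data known. Of the 17051 genes listed for rat kidney, 74 had a matching symbol. Kidney mRNA was sequenced from 6 male Sprague Dawley rats, each as a separate library. The AL group (rats 61, 71 and 88) ate normal chow ad libitum, and the HD group (rats 64, 67 and 69) ate chow with an added amino acid mixture that mimics the composition of hemoglobin. Both groups were kept on their diets for a week and then underwent the same surgery under isoflurane anesthesia, with micro-catheters and an infusion to measure renal blood flow. The diet was designed to raise ammonia production, and the ages of the rats and the zone of the kidney sampled are not given in the sources used here.

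The kidney holds matrix of different kinds. Basement membranes are thin sheets under epithelia and around capillaries, built from a network of type IV collagen and a network of laminin trimers that nidogens link, and in the glomerulus the sheet forms part of the filter. The interstitial matrix between tubules and vessels consists of fibrils of types I, III and V collagen, of fibronectin and of microfibrils, is laid down largely by fibroblasts and pericytes, and accumulates in renal fibrosis. Secreted and membrane-anchored metalloproteinases cut both kinds, ADAMTS proteases trim procollagens and cleave proteoglycans, and TIMPs bind and block the active sites of metalloproteinases.

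Of the 74 genes, 56 reached 30 estimated counts in some rat and were tested, and the other 18 reached at most 23 counts. Mmp1a and Mmp27 were listed at 0 in every rat. Of the tested genes, 5 (Col14a1, Col13a1, Mmp13, Timp4 and Adamts4) passed the minimum in 1 of the groups alone, and such a gene entered the test through its higher group. Mmp13, a collagenase, had 30 counts in AL rat 71, a single count in rat 88 and none in the other 4 rats, so no fold change is given for it. A pair of matches were matrix genes by symbol only, namely Col4a3bp, which encodes a ceramide transfer protein, and the pseudogene Col6a4p1. Col4a2, Col4a5, Col4a6, Lamb1, Nid1 and Col6a1, which belong to the same networks, were not among the genes listed and so could not be analysed.

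Total estimated counts ranged from 12499938 to 30466453 per rat, with the deepest library in the HD group (rat 69). The kidney genes Umod, Lrp2, Slc12a1, Aqp2 and Nphs1 had counts in all 6 rats. Levels are given as CPM, counts scaled to TMM-adjusted library sizes, when the same gene is compared between rats, and as TPM, which account for transcript length, when genes are compared with each other. Fold changes are HD against AL, and a negative log2 value means a lower level in the HD group. Each library came from a piece of tissue with many cell types, so fewer cells of a type and less RNA per cell cannot be told apart.

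Matrix genes had lower levels in the HD group more often than higher ones, and the metalloproteinase gene Mmp9 was the clearest case of the opposite. Of the 56 tested genes, 44 were lower and 12 higher in the HD group, and their median log2 fold change was -0.48, against a median of 0.01 over all 11553 tested genes. No member reached an adjusted *P* of 0.05 in edgeR's quasi-likelihood test, where the share of all genes that did was 0% and the smallest adjusted *P* of a member was 0.327 (Mmp9). At an unadjusted *P* under 0.05, 15 members (26.8%) were lower, against 5.94% of all tested genes, and 2 members (3.57%) were higher, against 4.66%. Among these, Adamts4 (lower) and Timp4 (higher) entered the test through their higher group alone. So did Mmp13 among the 44 lower genes, and Col13a1 and Col14a1 among the 12 higher. All 3 HD rats lay below all 3 AL rats for 8 members (14.3%), against 7.01% of all genes, and above them for 2 members (3.57%), against 7.25%. DESeq2, run as an alternative, called 5 members lower (8.93%, against 0.77% of all genes) and 1 member higher (1.79%, against 0.805%). An exact permutation test of a single gene with 3 rats against 3 cannot give a two-sided *P* below 0.1. The count of 17 members at an unadjusted *P* under 0.05 depended on single rats, being 26 without rat 61, 9 without rat 71, 11 without rat 88, 10 without rat 64, 9 without rat 67 and 25 without rat 69. The share of all genes moved as well. Lower calls were 8.59% of all genes without rat 61 (25 members), 3.53% without rat 71 (7), 3.03% without rat 88 (10), 2.85% without rat 64 (8), 4.0% without rat 67 (8) and 9.35% without rat 69 (24).

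**Figure D1:**
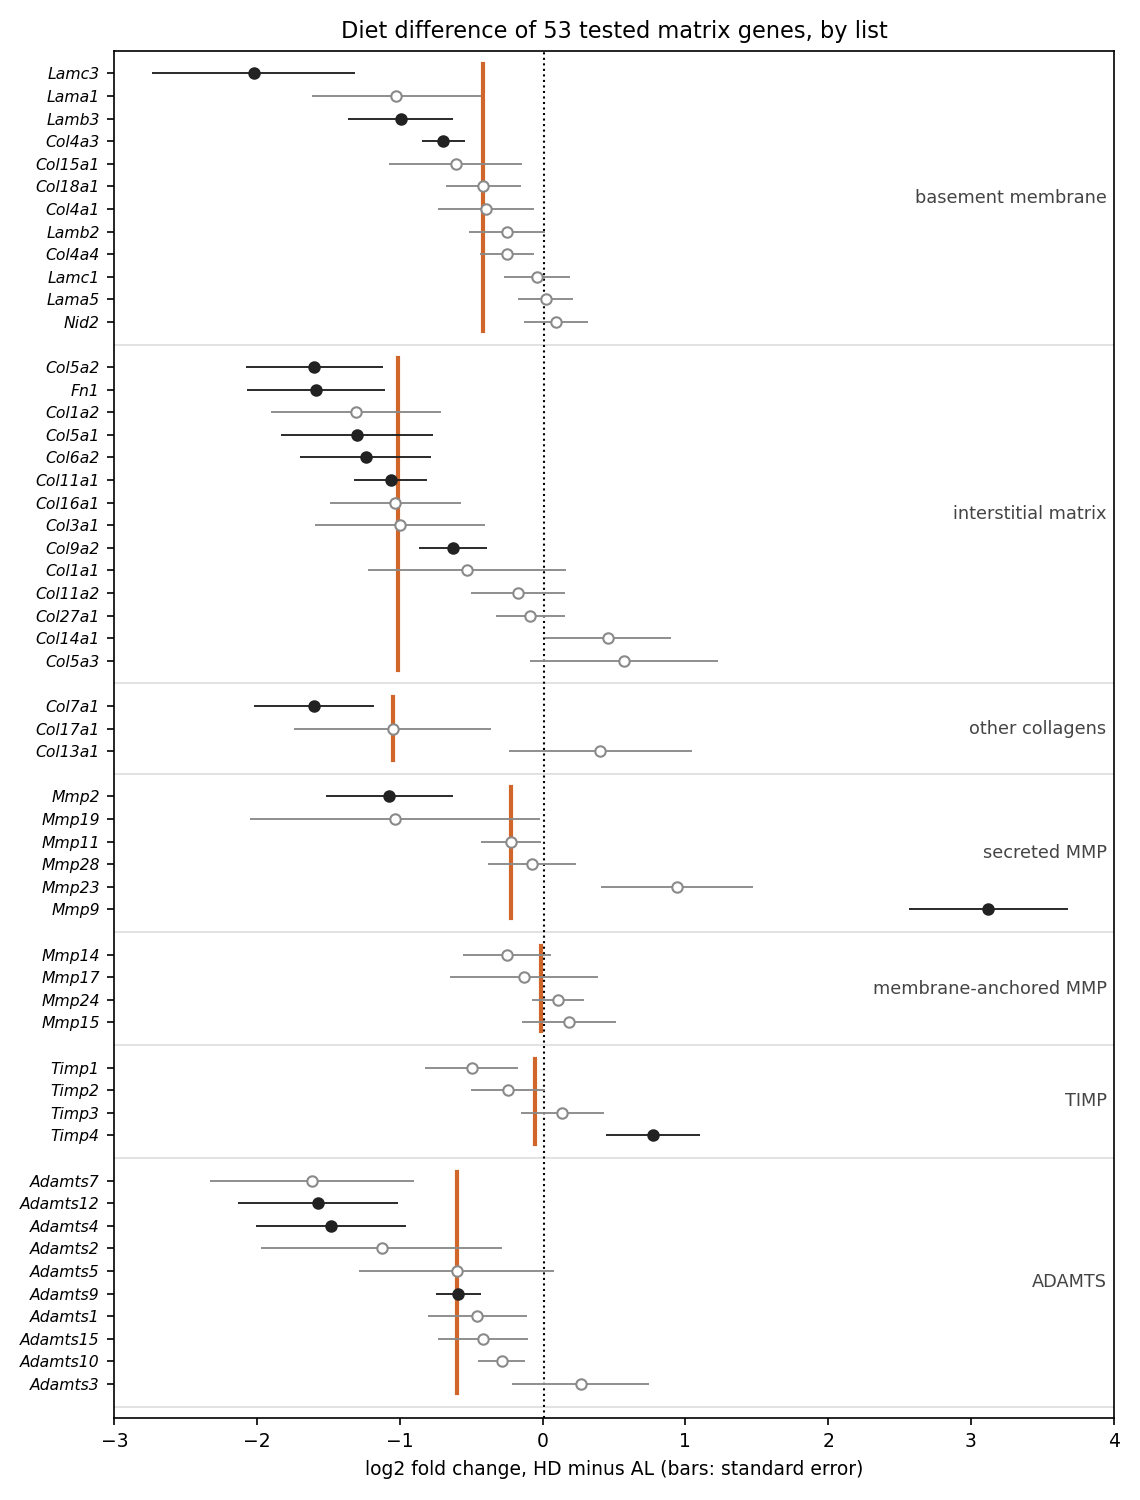
Log2 fold change (HD minus AL, x axis) of 53 tested matrix genes grouped by list, with bars for the standard error. Filled points had an unadjusted *P* under 0.05, orange lines mark the median over all tested genes of a list, the dotted line marks the median of all tested genes (0.01), and 3 tested genes, Mmp13 and Col4a3bp among them, are not shown; most points of the interstitial list lie left of the dotted line, and Mmp9 lies far to the right at 3.12.

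Among the 13 basement membrane genes, 11 were lower and 2 higher in the HD group (median log2 difference -0.41), and 4, among them Col4a3, Lamc3 and Lamb3, were lower at an unadjusted *P* under 0.05 (30.8%, against 5.94% of all tested genes). The median was -0.67 without rat 69 and -0.64 without rat 61, and between -0.42 and -0.29 when any other rat was left out. Lama5, Lamb2, Lamc1 and Nid2 had log2 fold changes between -0.25 and 0.09.

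Col4a3 encodes a chain of the collagen IV trimer that the mature glomerular basement membrane uses. Its level was 94.9, 130 and 126 CPM in AL rats 61, 71 and 88 and 79.7, 66.7 and 70.6 CPM in HD rats 64, 67 and 69. Every HD rat lay below every AL rat. The group means were 117 ± 19.3 and 72.3 ± 6.69 CPM (SD, n = 3 rats each), a log2 fold change of -0.70 (SE 0.15), with an adjusted *P* of 0.368 in edgeR and 0.0104 in DESeq2. The fold change stayed between -0.83 and -0.62 when any single rat was left out.

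Col4a4 encodes a partner chain of the same trimer and is transcribed away from Col4a3 from a start nearby on the opposite strand. In the rn5 build Col4a3 lies at chr9:88104688-88232032 on the plus strand (52 exons) and Col4a4 at chr9:88062426-88104120 on the minus strand, with 568 bases between their starts. The Col4a4 model in the files has 7 exons and 1152 bases, so its counts come from a part of the gene only. Col4a4 had 11.2, 12 and 13.7 CPM in the AL rats and 11.5, 8.39 and 11.1 CPM in the HD rats. These ranges overlapped, and the log2 fold change was -0.25 (SE 0.19, adjusted *P* = 0.712 in edgeR). The ratio of Col4a3 to Col4a4 in TPM was 1.87, 2.40 and 2.04 in the AL rats and 1.52, 1.75 and 1.40 in the HD rats, lower in every HD rat than in any AL rat.

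The start regions of the pair are shown because the genes share them. Each window runs from 250 bases before to 50 bases after the RefSeq start in the GRCr8 build, at chr9:91323740-91324039 on the plus strand for Col4a3 and chr9:91323528-91323827 on the minus strand for Col4a4, and the starts are 413 bases apart in that build. Capitals mark the 88 bases that both windows hold, each read 5′ to 3′ on the strand of its gene.
Col4a3: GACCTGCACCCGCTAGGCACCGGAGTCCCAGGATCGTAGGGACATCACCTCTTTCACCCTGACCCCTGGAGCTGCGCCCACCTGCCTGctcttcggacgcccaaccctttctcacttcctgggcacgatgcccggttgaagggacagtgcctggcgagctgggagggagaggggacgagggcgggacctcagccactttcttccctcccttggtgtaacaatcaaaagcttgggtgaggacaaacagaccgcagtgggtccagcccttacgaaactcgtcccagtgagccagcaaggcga
Col4a4: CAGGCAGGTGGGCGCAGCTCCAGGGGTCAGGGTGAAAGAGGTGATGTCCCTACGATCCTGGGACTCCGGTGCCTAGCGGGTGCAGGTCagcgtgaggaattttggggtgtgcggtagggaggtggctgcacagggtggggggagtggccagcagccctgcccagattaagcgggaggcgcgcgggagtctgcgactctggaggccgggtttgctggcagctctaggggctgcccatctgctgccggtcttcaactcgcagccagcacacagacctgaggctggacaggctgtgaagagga

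Col4a1, a chain of the collagen IV found in all basement membranes, had 148 to 312 CPM in the AL rats and 122 to 239 CPM in the HD rats, with a log2 fold change of -0.40 (SE 0.33, adjusted *P* = 0.741). Col18a1, a heparan sulfate collagen of basement membranes that carries endostatin, had the highest mean TPM of the list (72.1 to 167 TPM across the 6 rats) and averaged 411 ± 121 CPM in the AL group and 309 ± 76.6 CPM in the HD group, and the log2 fold change was -0.41 (SE 0.26, adjusted *P* = 0.640). For both genes the groups overlapped.

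The laminin chains divided into a set with small differences (Lama5, Lamb2 and Lamc1, at 10.2 to 95.2 TPM over the 6 rats) and a scarcer set with lower levels in the HD group (Lamb3 and Lamc3, at 0.39 to 11.7 TPM). Lama5, Lamb2 and Lamc1 encode the chains of the laminin trimer of the mature glomerular basement membrane. Lama5 averaged 147 ± 24.9 CPM in the AL group and 149 ± 34.5 CPM in the HD group (log2 fold change 0.02, SE 0.19), a sign that turned to -0.04 with scaling by library size alone. Lamb2 had a log2 fold change of -0.25 (SE 0.27) and Lamc1 one of -0.04 (SE 0.23). Nid2, which encodes a linker between laminin and collagen IV, averaged 110 ± 6.59 and 117 ± 39.8 CPM, a log2 fold change of 0.09 (SE 0.22). For these 4 genes the groups overlapped.

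Lamb3 encodes a chain of the epithelial laminin of anchoring complexes. It had 9.21, 18.6 and 21.3 CPM in the AL rats and 7.47, 5.80 and 11.3 CPM in the HD rats, so HD rat 69 lay above AL rat 61 (log2 fold change -0.99, SE 0.37, adjusted *P* = 0.419). Lamc3, a gamma chain of laminin, had 9.13, 43.3 and 23.2 CPM in the AL rats and 1.7, 5.30 and 11.1 CPM in the HD rats (log2 fold change -2.02, SE 0.71, adjusted *P* = 0.407). The Lamc3 fold change ranged from -2.80 without rat 69 to -1.40 without rat 71 when single rats were left out.

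Among the 14 tested of 16 interstitial matrix genes, 12 were lower and 2 higher in the HD group, and the median log2 difference was -1.01. At an unadjusted *P* under 0.05, 6 of them were lower (Col11a1, Col5a2, Fn1, Col6a2, Col9a2 and Col5a1), or 42.9% against 5.94% of all tested genes, and none higher. DESeq2 called Col11a1, Col5a2 and Fn1 lower, 21.4% of the list against 0.77% of all genes. The median lay between -1.45 (without rat 69) and -0.70 (without rat 71) when single rats were left out.

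Types V and XI collagen are minor fibrillar collagens that sit in the core of larger fibrils and set their diameter. Col5a2 had 26.6, 40.8 and 42.9 CPM in the AL rats and 4.07, 12.2 and 19.4 CPM in the HD rats. Every HD rat lay below every AL rat, and the means of 36.8 ± 8.88 and 11.9 ± 7.69 CPM gave a log2 fold change of -1.60 (SE 0.48), with an adjusted *P* of 0.404 in edgeR and 0.0322 in DESeq2. Col11a1 had 7.55, 12.7 and 9.40 CPM in the AL rats and 3.99, 4.95 and 5.18 CPM in the HD rats, again with no overlap. Its log2 fold change was -1.07 (SE 0.26), with an adjusted *P* of 0.368 in edgeR and 0.0327 in DESeq2. Col5a1, whose chain pairs with that of Col5a2, averaged 14.9 ± 7.93 CPM in the AL group and 5.95 ± 3.56 CPM in the HD group (log2 fold change -1.30, SE 0.53, adjusted *P* = 0.456), and HD rat 69 lay above AL rat 61. The other tested genes of these types differed from this. Col11a2 had a log2 fold change of -0.17 (SE 0.33, adjusted *P* = 0.904 in edgeR), and Col5a3 was higher in the HD group (0.57). For both the groups overlapped.

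Types I and III collagen, which form the bulk of interstitial fibrils, varied widely between rats of a group. Col3a1 had 38.6, 113 and 72.3 CPM in the AL rats and 10.4, 42.6 and 58.1 CPM in the HD rats, a log2 fold change of -1.0 (SE 0.59, adjusted *P* = 0.615). Col3a1 and Col5a2 are neighbours on chromosome 9 with 32078 bases between their ends in rn5. Col1a1 had 12, 53.3 and 25.3 CPM in the AL rats and 6.88, 15 and 40.3 CPM in the HD rats, and its log2 fold change of -0.53 (SE 0.69, adjusted *P* = 0.851) turned to 0.16 without rat 71. Col1a2 averaged 44.4 ± 25.4 and 17.7 ± 11.6 CPM, a log2 fold change of -1.31 (SE 0.59, adjusted *P* = 0.494), from near-identical copies at chr4:29443178-29478105 and chr4:31405253-31440180 that were summed, so its level is uncertain. The groups overlapped for all 3 genes.

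Fn1 encodes fibronectin, the glycoprotein on which collagen fibrils assemble. Its level was 54.7, 174 and 164 CPM in the AL rats and 29.5, 33.1 and 67.7 CPM in the HD rats. HD rat 69 lay above AL rat 61, and the other HD rats lay below all AL rats. The means of 131 ± 66.2 and 43.5 ± 21.1 CPM gave a log2 fold change of -1.59 (SE 0.48), with an adjusted *P* of 0.406 in edgeR and 0.0220 in DESeq2, and it stayed between -2.06 and -1.33 when any single rat was left out. Col6a2, a chain of the beaded microfibrils of type VI collagen, averaged 27.6 ± 11.8 and 11.6 ± 6.09 CPM (log2 fold change -1.24, SE 0.46, adjusted *P* = 0.425), with overlapping groups. Col9a2, a fibril-associated collagen, averaged 6.17 ± 1.23 and 3.99 ± 0.133 CPM with no overlap (log2 fold change -0.63, SE 0.24, adjusted *P* = 0.426).

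Like Col11a2, the fibrillar collagen gene Col27a1 had a small log2 fold change for the interstitial list. It had 95.9, 54.4 and 54.7 CPM in the AL rats and 68.3, 71.6 and 53.1 CPM in the HD rats, so the groups overlapped and AL rat 61 was the highest. Its log2 fold change was -0.09 (SE 0.24, adjusted *P* = 0.946) and 0.24 without rat 61. The genes of the list with a higher level in the HD group were Col14a1 (0.46) and Col5a3 (0.57), both with overlapping groups. The Col5a3 value ranged from -0.0994 to 1.03 when single rats were left out.

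Col7a1 encodes the collagen of anchoring fibrils, which tie basement membranes to the stroma below, and belongs to neither list. It had 7.55, 10.3 and 11.4 CPM in the AL rats and 1.87, 2.20 and 5.34 CPM in the HD rats, with no overlap. Its log2 fold change was -1.60 (SE 0.42), with an adjusted *P* of 0.398 in edgeR and 0.0286 in DESeq2. Col17a1, a transmembrane collagen of epithelial attachment sites, had a log2 fold change of -1.05 (SE 0.69, adjusted *P* = 0.645) and Col13a1, a transmembrane collagen too, one of 0.40 (SE 0.64, adjusted *P* = 0.884), both with overlapping groups.

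**Figure D2:**
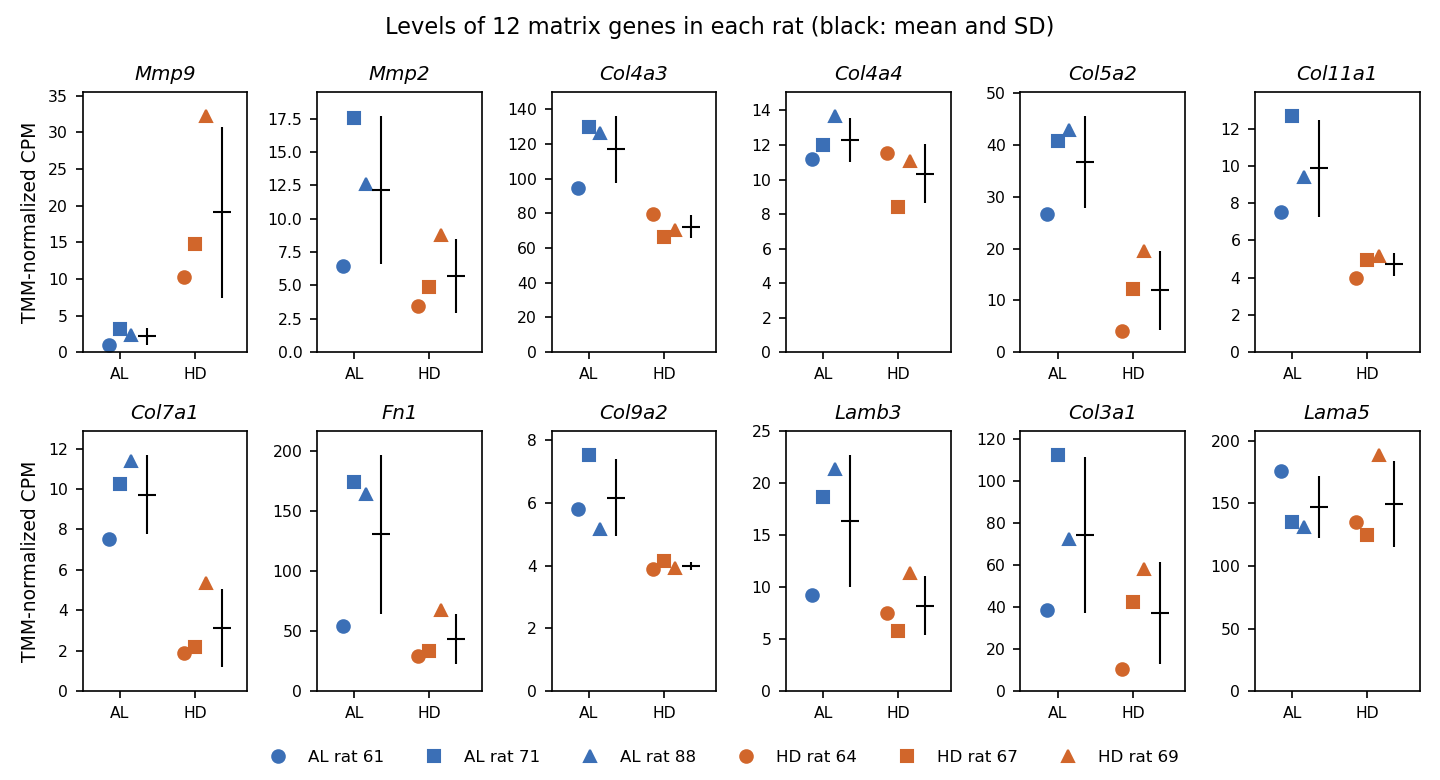
TMM-normalized CPM (y axis, starting at 0) of 12 matrix genes in each AL and HD rat, with the mean and SD of the group in black. Mmp9 is higher in all HD rats, Col4a3, Col5a2, Col11a1, Col7a1 and Col9a2 are lower in all HD rats, and in the other 6 genes the groups overlap.

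Promoter windows were on hand for 53 of the 74 genes, among them 4 of the 6 members that DESeq2 called. Those of the 3 called collagens other than Col4a3 are shown, to set side by side the start regions of genes with a lower level in the HD group. They come from RefSeq in the GRCr8 build, at chr9:55090102-55090401 on the minus strand for Col5a2, chr2:204508886-204509185 on the plus strand for Col11a1 and chr8:118483114-118483413 on the plus strand for Col7a1. Capitals mark matches on either strand to TATAAA, the CCAAT box (CCAAT), the GC box (GGGCGG) or the AP-1 site (TGANTCA).
Col5a2: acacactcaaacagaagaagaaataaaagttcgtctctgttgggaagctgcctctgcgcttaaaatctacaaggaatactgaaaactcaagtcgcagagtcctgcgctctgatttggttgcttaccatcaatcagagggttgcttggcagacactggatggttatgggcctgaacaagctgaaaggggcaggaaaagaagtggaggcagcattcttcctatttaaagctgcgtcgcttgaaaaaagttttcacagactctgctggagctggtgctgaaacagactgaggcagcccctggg
Col11a1: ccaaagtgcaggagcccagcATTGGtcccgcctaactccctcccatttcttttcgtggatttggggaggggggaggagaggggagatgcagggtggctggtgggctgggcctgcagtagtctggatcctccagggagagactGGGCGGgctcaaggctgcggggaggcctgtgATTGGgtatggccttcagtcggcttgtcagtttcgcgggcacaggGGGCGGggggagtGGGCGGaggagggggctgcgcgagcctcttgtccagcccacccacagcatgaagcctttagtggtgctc
Col7a1: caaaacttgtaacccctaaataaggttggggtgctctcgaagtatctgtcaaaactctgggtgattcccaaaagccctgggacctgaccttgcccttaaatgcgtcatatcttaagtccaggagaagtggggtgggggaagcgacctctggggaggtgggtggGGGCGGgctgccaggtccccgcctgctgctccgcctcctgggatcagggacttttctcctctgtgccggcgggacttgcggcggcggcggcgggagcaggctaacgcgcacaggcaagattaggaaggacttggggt

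The Col11a1 window held 3 GC boxes, at bases -108, -32 and -19 from the start, and 2 CCAAT boxes in reverse, at -230 and -77. The Col7a1 window held 1 GC box at -87, the Col4a3 window 1 at -72, and the Col5a2 window held none of the 4 motifs. Over the 53 member windows, 54.7% held a GC box and 26.4% a TATAAA, against 33.1% and 14.2% of all 33469 windows. Each member gave 1 window, whereas the 33469 windows were not reduced to 1 per gene, so these shares are in unlike units. A CCAAT box occurred in 26.4% of member windows and 37.5% of all windows, and an AP-1 site in 11.3% and 7.33%. In the windows shown no match overlapped another. A match describes letters in the window and was not tested as a binding site.

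Basement membrane and interstitial transcripts were set against each other within each rat by summing the TPM of each list. The basement membrane sum was 298, 502 and 443 TPM in the AL rats and 254, 246 and 436 TPM in the HD rats. The interstitial sum was 78.4, 186 and 138 TPM in the AL rats and 41.2, 62.5 and 97.4 TPM in the HD rats. For either list the groups overlapped, with AL rat 61 low and HD rat 69 high in their groups. The ratio of interstitial to basement membrane TPM was 0.263, 0.371 and 0.313 in the AL rats and 0.163, 0.254 and 0.223 in the HD rats (0.316 ± 0.0538 against 0.213 ± 0.0468, SD, n = 3 rats each), with every HD rat below every AL rat. The difference between the lists was not tested, and the separation rested on single genes. Without Col18a1 the ratios were 0.356 to 0.556 in the AL rats and 0.240 to 0.360 in the HD rats, and without Col27a1 they were 0.181 to 0.338 and 0.0918 to 0.189, so the groups overlapped in both cases. Without Fn1 they stayed apart, at 0.232 to 0.300 and 0.142 to 0.231.

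**Figure D3:**
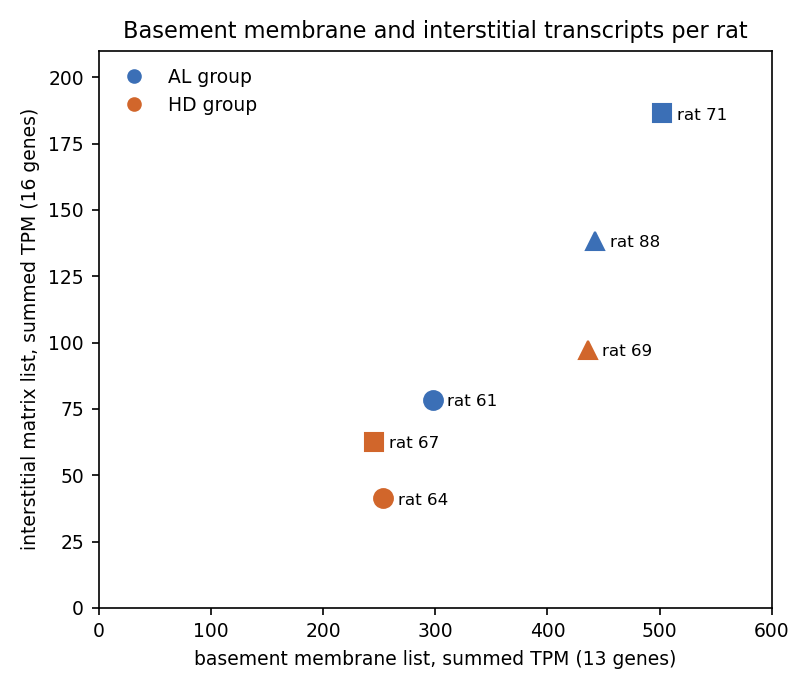
Summed TPM of the interstitial matrix list (y axis) against that of the basement membrane list (x axis), 1 point per rat, blue for AL and orange for HD. The AL rat 61 (298 and 78.4 TPM) lies near the HD rats 64 and 67, and the HD rat 69 (436 and 97.4 TPM) lies near AL rat 88 on the x axis and lower on the y axis.

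The spread within the groups was shared by many genes. Rat 61 had the lowest AL level in 10 of the 14 tested interstitial genes and in 10 of the 13 basement membrane genes. Rat 69 had the highest HD level in 11 genes of either list. Rat 64 was the lowest of all 6 rats for Col1a1, Col1a2, Col3a1, Col5a1, Col5a2, Col6a2 and Fn1.

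**Figure D4:**
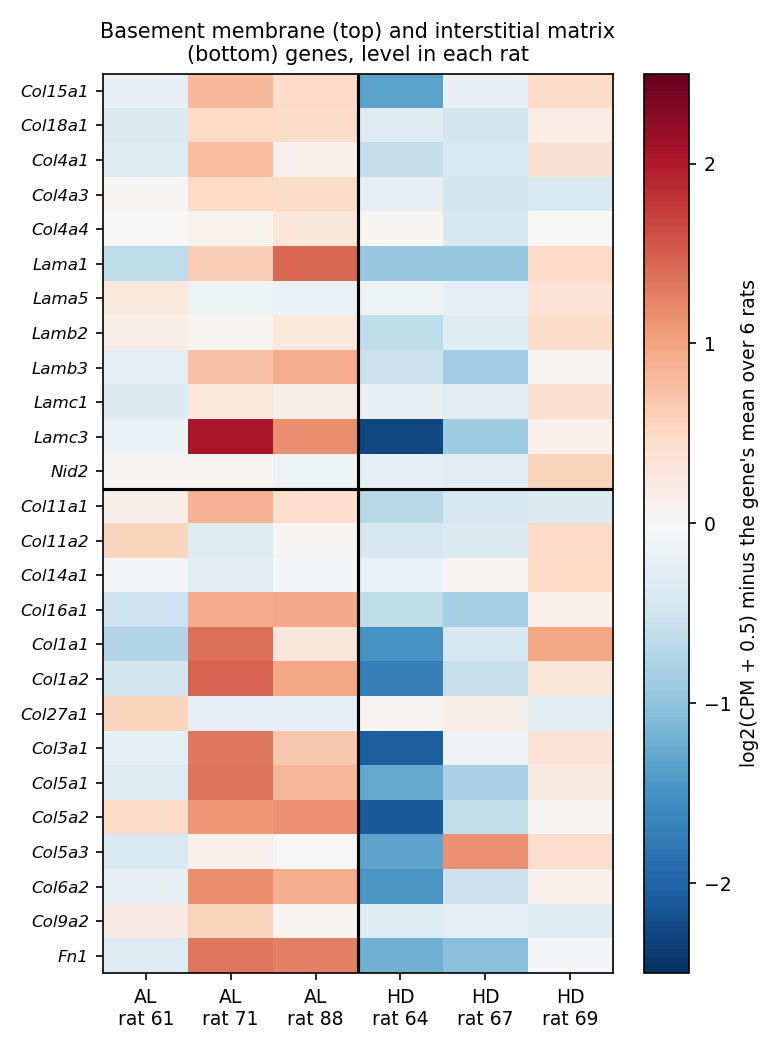
Log2(CPM + 0.5) of 12 basement membrane genes (above the black line) and 14 interstitial genes (below it) in each rat, minus the mean of the gene over 6 rats, red for above and blue for below that mean. AL rats 71 and 88 are mostly red and HD rats 64 and 67 mostly blue, while AL rat 61 and HD rat 69 lie in between.

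The metalloproteinases of the secreted list, which took every Mmp gene not listed as membrane-anchored (Mmp23 among them), differed in direction. Of 16 genes, 7 were tested, 2 of them higher and 5 lower in the HD group, and the median of -0.22 belongs to Mmp11, a stromal metalloproteinase, for any value of Mmp13 below it. The gelatinases Mmp9 and Mmp2, which cleave denatured collagen and type IV collagen, differed in opposite directions.

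Mmp9 (chr3:167597817-167605880 in rn5, plus strand, 13 exons) had 0.953, 3.21 and 2.32 CPM in the AL rats and 10.2, 14.7 and 32.3 CPM in the HD rats. The lowest HD rat was above the highest AL rat. The means of 2.16 ± 1.14 and 19.1 ± 11.7 CPM gave a log2 fold change of 3.12 (SE 0.56), an 8.70-fold higher level, with an unadjusted *P* of 0.000659 and an adjusted *P* of 0.327 in edgeR and an adjusted *P* of 1.81e-06 in DESeq2. The log2 fold change stayed between 2.51 and 3.52 when any single rat was left out.

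Mmp2 had 6.43, 17.5 and 12.6 CPM in the AL rats and 3.48, 4.90 and 8.79 CPM in the HD rats, with HD rat 69 above AL rat 61. Its log2 fold change was -1.07 (SE 0.45, unadjusted *P* = 0.0455 and adjusted *P* = 0.465 in edgeR). The ratio of Mmp9 to Mmp2 in TPM was 0.148, 0.183 and 0.183 in the AL rats and 2.91, 3.0 and 3.65 in the HD rats, so Mmp2 was the more abundant gelatinase transcript in every AL rat and Mmp9 in every HD rat. Of the other genes of the secreted list, Mmp11 had a log2 fold change of -0.22 (SE 0.21) and Mmp23 one of 0.94 (SE 0.53, adjusted *P* = 0.590), with overlapping groups.

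The metalloproteinases listed as membrane-anchored differed little between the diets. Of 5 genes 4 were tested, 2 higher and 2 lower, the median being -0.01 on the log2 scale, and none had an unadjusted *P* under 0.05. Mmp24 had the highest level, at 21.6 to 30.9 TPM over the 6 rats, and averaged 64.8 ± 14.2 and 69.7 ± 10.2 CPM (log2 fold change 0.11, SE 0.18), Mmp15 had a log2 fold change of 0.18 (SE 0.33), and Mmp14, which activates the Mmp2 proenzyme, had one of -0.25 (SE 0.31). The groups overlapped for all of these.

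All 4 inhibitors were tested, and 2 were higher and 2 lower in the HD group. Timp3, which stays bound to the matrix, had 107 to 259 TPM over the 6 rats, against at most 28.7 TPM for the other inhibitors, and averaged 179 ± 44.2 CPM in the AL group and 198 ± 73.8 CPM in the HD group (log2 fold change 0.14, SE 0.29). Timp1, an inhibitor that binds the Mmp9 proenzyme, averaged 5.36 ± 1.11 and 3.77 ± 1.34 CPM (log2 fold change -0.50, SE 0.33, adjusted *P* = 0.644), and Timp2, which takes part in the activation of Mmp2, had a log2 fold change of -0.24 (SE 0.26). For these 3 genes the groups overlapped. Timp4 had 1.75, 1.61 and 1.19 CPM in the AL rats and 2.12, 2.60 and 3.01 CPM in the HD rats, with no overlap (log2 fold change 0.77, SE 0.33, unadjusted *P* = 0.0490 and adjusted *P* = 0.468 in edgeR), and it passed the count minimum in the HD group alone. The ratio of Mmp9 to Timp1 in TPM ranged from 0.0541 to 0.133 in the AL rats and from 0.758 to 1.42 in the HD rats.

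Of the 13 ADAMTS genes 10 were tested, 9 of them lower and 1 higher in the HD group, and the median log2 difference was -0.60. Adamts9, a proteoglycan-cleaving member, had 17.2, 20.2 and 18.7 CPM in the AL rats and 10.6, 12.8 and 13.6 CPM in the HD rats, without overlap. Its log2 fold change was -0.59 (SE 0.16), with an adjusted *P* of 0.398 in edgeR and 0.0985 in DESeq2. Adamts12 averaged 5.06 ± 2.59 and 1.65 ± 0.942 CPM (log2 fold change -1.57, SE 0.56) and Adamts4, an aggrecanase, 2.83 ± 1.55 and 1.02 ± 0.333 CPM (log2 fold change -1.48, SE 0.52), each with an adjusted *P* of 0.408 and overlapping groups. Adamts4 passed the count minimum in the AL group alone, where it was higher. Adamts10, which binds fibrillin microfibrils, was lower in every HD rat by a small amount, at 44.6 ± 1.16 and 36.5 ± 7.80 CPM (log2 fold change -0.29, SE 0.16, adjusted *P* = 0.596). Adamts1 averaged 41.6 ± 23.5 and 30.2 ± 2.92 CPM, and its log2 fold change of -0.46 (SE 0.35) turned to 0.11 without AL rat 61, which had 68.7 CPM.

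Genes that work with these proteins were described by list, and 75 of the 82 found in the files were tested. Together 53 were lower and 22 higher in the HD group, their median being -0.22, and 16 were lower and 3 higher at an unadjusted *P* under 0.05 (5.94% and 4.66% of all tested genes were), where no gene reached an adjusted *P* of 0.05 in edgeR. DESeq2 called 5 of them lower and 1 higher, against 0.77% and 0.805% of all genes.

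All 14 tested genes of matrix assembly and cross-linking were lower, with a median of -0.69, and Loxl1 (-1.39) and Loxl2 (-1.78), lysyl oxidases that cross-link elastin and collagen, Plod2 (-0.94), a lysyl hydroxylase, and Tll1 (-2.55), a procollagen-processing protease, had an unadjusted *P* under 0.05. Tll1 had 13, 52 and 61 counts in the AL rats and 1, 11 and 19 in the HD rats, so it entered the test through the AL group, where it is higher. Of 26 small proteoglycans and glycoproteins 18 were lower, and 8 passed the same value, namely the proteoglycans Dcn, Ogn and Vcan, the glycoprotein Tnc and the elastic fiber genes Fbn1, Fbln1, Fbln5 and Ltbp4, from -2.33 for Tnc (-3.52 to -1.94 when single rats were left out) to -0.58 for Ltbp4. Dcn, which encodes the collagen-binding decorin and is also among the fibroblast markers, averaged 86.0 CPM in the AL group and 33.7 CPM in the HD group (log2 fold change -1.35), and DESeq2 called it (adjusted *P* = 0.00881). Of 12 partners of the basement membrane 10 were lower, with Agrn (-0.50), the heparan sulfate proteoglycan of the glomerular basement membrane, Frem1 (-0.99), of the Fraser complex under epithelia, and Egflam (-0.99), a dystroglycan ligand, at an unadjusted *P* under 0.05.

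Receptors for collagen and laminin were divided more evenly. Of 12 tested, 7 were lower and 5 higher, and those at an unadjusted *P* under 0.05 were all higher. They were Itga6 (0.46), a laminin receptor chain, Itgb8 (1.19), a receptor chain for matrix-bound latent TGF-beta that DESeq2 called (adjusted *P* = 0.0357), and Ddr1 (0.45), a collagen-binding kinase. Of 11 matrix growth factors and plasminogen genes 7 were higher and 4 lower, and Serpine2 (-1.90), a protease inhibitor, was the one with an unadjusted *P* under 0.05 and an adjusted *P* of 0.0133 in DESeq2.

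Markers of the cell types that make or hold matrix were measured in the same libraries. The summed TPM of 7 fibroblast markers was 133 to 286 in the AL rats and 117 to 173 in the HD rats, with 4 of 6 tested markers lower, and Lum and Mfap5 were each at 0 in a rat. All 8 leukocyte markers had lower levels in HD rats on average, the median log2 difference being -1.21, with summed TPM of 371 to 999 and 202 to 478. Of 8 endothelial markers 7 were lower, with sums of 112 to 393 and 71.9 to 265 TPM. For all 3 lists the sum was lowest in rat 61 among AL rats and highest in rat 69 among HD rats.

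Rat 61 was also the lowest AL rat and rat 69 the highest HD rat in the podocyte and mesangial sums, whose ranges overlapped between the groups. Of 9 podocyte markers 7 were higher in the HD group, with sums of 37.6 to 107 TPM in the AL rats and 72.9 to 131 TPM in the HD rats, and no podocyte marker was at 0 in any rat. The 7 mesangial and pericyte markers summed to 36.6 to 80.5 TPM and 39.9 to 168 TPM, with 4 higher and 3 lower. The proximal tubule markers summed to 1312 to 1821 TPM in the AL rats and 2186 to 2968 TPM in the HD rats, without overlap. Slc34a1 held most of these sums, averaging 1132 TPM in the AL group and 1767 TPM in the HD group. Slc34a1 and Slc22a6 were higher in every HD rat, whereas the groups overlapped for Lrp2 (log2 fold change 0.19), Cubn (-0.05) and Slc5a2 (0.57). The part of the cell makeup in the matrix values and in those of Mmp9 was not tested.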

How the data were processed

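Kidney poly(A) RNA of 3 AL and 3 HD rats was sequenced, 1 library per rat, and each rat was grouped by its labelled diet. The authors assigned reads to rn5 gene models with RSEM (version 1.1.15 per the submitters' processing notes) and deposited, for each transcript, an estimated count (expected count, not normalized), a posterior mean of that count and TPM. The library kit does not mark strand, so reads of a gene and an antisense partner cannot be told apart.

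Estimated counts were summed per gene and rounded. Genes with at least 30 counts in at least 1 rat (11553 genes) were tested with edgeR 4.0.16 (quasi-likelihood test, TMM, R 4.3.3), with diet as the only factor and Benjamini-Hochberg adjustment over all of them. DESeq2 1.42.0, the tool of the study's methods, was an alternative. The standard error was the absolute log2 fold change divided by the square root of F. Library totals differed by up to 2.44 times and the common biological coefficient of variation was 0.242. A normalization by library size alone shifted the median of all genes to -0.07.

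The members and lists were chosen with earlier results of these data known. Members were named when they had an unadjusted *P* under 0.05, were core chains, inhibitors or gelatinases, or were among the 3 with the highest mean TPM in their list. The other members named were chosen after their values were seen, as were the TPM ratios. Other alternatives were a robust fit, RLE scaling, library size alone, other count minimums, the posterior mean count and leaving out each rat. A member so named is left out of the text. The main edgeR fit was also run on simulated counts, whereas DESeq2 and the other alternatives were not. Promoter windows (RefSeq, GRCr8) were matched by symbol. Figures used Python 3.11.15 and matplotlib 3.10.9.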

Additional observations from a re-analysis of the deposited data

How the results depend on the processing

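No member was called by any edgeR fit, and the edgeR fit as reported called 0% of all 11553 tested genes. DESeq2 called 6 members, 5 lower (8.93%, against 0.77% of all genes) and 1 higher (1.79%, against 0.805%). The 17 members with an unadjusted *P* under 0.05 in edgeR ranged from 9 to 26 (10 without rat 64) when single rats were left out, while lower calls ranged from 2.85% to 9.35% of all genes, and the cause was not tested. The medians of the basement membrane and interstitial lists stayed negative under every alternative run. The difference in the interstitial to basement membrane TPM ratio (HD minus AL) was -0.10, and -0.157 without Col18a1, -0.07 without Fn1 and between -0.128 and -0.0746 when single rats were left out, alternatives chosen after seeing the data.

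Of the 41 tested genes named by the rules above, 11 changed sign under some alternative, and none of these had an unadjusted *P* under 0.05. Col5a3 (-0.0994 to 1.03) and Col11a2 (-0.55 to 0.09), named outside those rules, also changed sign when single rats were left out. With library size alone the log2 fold change of Lama5 was -0.0390. Without rat 61 it was 0.24 for Col27a1, -0.0468 for Col13a1, -0.0518 for Timp3 and 0.11 for Adamts1. Without rat 71 it was -0.0374 for Lama5, 0.0830 for Lamc1, 0.16 for Col1a1, 0.0800 for Mmp14 and -0.00078 for Mmp24. Without rat 88 it was -0.0479 for Lama5, 0.0217 for Lamc1 and -0.0289 for Mmp15. For Lamc1 it was 0.0507 without rat 64 and 0.0923 without rat 67. Without rat 69 it was -0.18 for Lama5, -0.22 for Nid2, 0.0416 for Col27a1, -0.00058 for Mmp15 and -0.19 for Timp3. The cause was not tested.

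No paired analysis was possible because the labels give no replicate numbers that groups share. With 3 rats per group the spread between rats limits precision, also for a well-counted gene such as Col1a1 (SE 0.69, at least 81 counts in every rat).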
